A study of Mus musculus with 24 samples.

Results

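The genes described here, called the neighbours, are 10 genes near Stub1 on mouse chromosome 17: Chtf18, Msln, Ciao3 (named Narfl on the array), Metrn, Fbxl16, Wdr24, Jmjd8, Rhbdl1, Rhot2 and Rab40c. They were chosen for their position near the inactivated gene, with earlier results of these data known. The aim was to check whether the region around the null allele differed along with Stub1. They are not all genes of that stretch, since others such as Haghl, Antkmt, Wdr90, Mcrip2 and Mettl26 lie among them. The arrays hold 13 probes for them among 41174 probes for 27670 genes or features, and 9 of the 10 genes passed the filter on dim probes, among 13488 genes tested. The cells were fibroblasts, the cells of connective tissue, cultured from mouse embryos at day 13.5, from C57BL6 crosses between carriers of 1 inactive CHIP allele, with β-mercaptoethanol in the medium of every culture. The 8 groups were CHIP null cells held at 43 °C for 30 min, CHIP null cells at 37 °C with the 30 min label, the wildtype cells of those same conditions, and the same 4 groups with the 240 min label. Each group had 3 arrays, which the labels call biological replicates, 24 arrays in all. The sources used here do not say how the null allele was made or whether replicates came from separate embryos.

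Each array compared Cy5-labelled RNA of the cells with 1 common Cy3-labelled reference RNA, so every level below is a log2 ratio of the cells over that reference, and levels of different genes are not set against each other. The deposited value table assigned every column to the other time label than the scanner files did, with correlations of at least 0.9996 to the scanner file of the other label and at most 0.9004 to that of the same label. The time labels here are those of the scanner files. Genotype and temperature do not depend on that choice, while 30 min and 240 min would trade places. The 2 labels were also hybridised on different slides, so time and slide set cannot be told apart, and no slide held both genotypes at the same temperature. The wildtype arrays of the 2 labels also differed in sex-linked genes, as given below, and time cannot be told apart from that difference either. The median Cy5 signal was 4.78 to 9.9 times the local background, and 32.9% to 48.6% of probes were well above background on an array. Replicate arrays correlated at 0.981 to 0.995.

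CHIP, the product of Stub1, is a ubiquitin ligase that docks on the chaperones HSP70 and HSP90 and marks their clients for degradation. Genes that flank an inactivated gene can stay with it through breeding and can lie close to an inserted cassette, so their levels are a common check on a mutant line. The neighbours have unrelated roles: Jmjd8 encodes a JmjC-domain protein of the endoplasmic reticulum lumen, Msln the surface glycoprotein mesothelin, Metrn the secreted factor meteorin, Chtf18 a subunit of an alternative clamp loader used in sister chromatid cohesion, Ciao3 a factor of cytosolic iron-sulfur protein assembly and Wdr24 a subunit of the GATOR2 complex in amino acid sensing. Fbxl16 is an F-box protein, Rab40c a small GTPase with a SOCS box, Rhot2 a GTPase of the mitochondrial outer membrane, and Rhbdl1 a member of the rhomboid family.

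The annotated upstream regions of Jmjd8 and Stub1 are shown because these 2 adjacent genes were both lower in CHIP null cells, and that of Metrn because it was called higher with heat in all 4 comparisons after loess scaling, though not under median centring. Each is the 250 bases before the annotated start, 5′ to 3′ on the gene's own strand, from RefSeq for build GRCm38.p6. Capitals mark 3 motifs searched on both strands: the heat shock element GAANNTTC or TTCNNGAA, the GC box GGGCGG or CCGCCC, and the CCAAT box CCAAT or ATTGG.
Jmjd8, chr17:25828793-25829042, plus strand: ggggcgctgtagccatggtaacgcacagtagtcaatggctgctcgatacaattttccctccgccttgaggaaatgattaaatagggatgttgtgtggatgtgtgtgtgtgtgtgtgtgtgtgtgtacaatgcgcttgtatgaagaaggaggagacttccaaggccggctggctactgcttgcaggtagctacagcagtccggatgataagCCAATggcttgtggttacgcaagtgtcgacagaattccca
Stub1, chr17:25832920-25833169, minus strand: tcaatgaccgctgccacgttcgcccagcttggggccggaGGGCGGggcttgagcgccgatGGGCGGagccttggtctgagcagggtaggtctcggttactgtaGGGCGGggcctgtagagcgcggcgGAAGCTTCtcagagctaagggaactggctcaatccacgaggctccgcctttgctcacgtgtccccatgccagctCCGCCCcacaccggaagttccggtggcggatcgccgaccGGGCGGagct
Metrn, chr17:25797046-25797295, minus strand: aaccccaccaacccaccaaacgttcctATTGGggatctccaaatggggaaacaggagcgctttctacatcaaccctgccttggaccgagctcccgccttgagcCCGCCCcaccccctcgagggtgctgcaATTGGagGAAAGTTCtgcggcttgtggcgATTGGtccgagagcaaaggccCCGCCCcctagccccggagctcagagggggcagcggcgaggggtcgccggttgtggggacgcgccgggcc
Jmjd8 had 0 heat shock elements, 0 GC boxes and 1 CCAAT box in this window. Stub1 had 1 heat shock element, 5 GC boxes and 0 CCAAT boxes. Metrn had 1 heat shock element, 2 GC boxes and 3 CCAAT boxes. Of 32851 windows of this length over all genes, 12.8% held the heat shock element, 32.7% the GC box and 33.8% the CCAAT box. A match is only a match of letters. RefSeq entries were found for 8 of the 10 neighbours; Msln and Wdr24 are named only.

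Stub1 itself was measured first. Its log2 ratios at 37 °C with the 30 min label were −2.12, −1.94 and −2.04 in CHIP null cells, against −0.24, −0.24 and −0.12 in wildtype cells. At 43 °C and 30 min they were −1.73, −1.72 and −1.92 in CHIP null cells, against −0.04, −0.01 and −0.08 in wildtype cells. At 240 min the 6 CHIP null arrays lay between −2.43 and −2.02, against −0.24 to −0.06 on the 6 wildtype arrays. Every CHIP null array was below every wildtype array, which matches the genotype labels, and the differences were −1.83, −1.74, −2.08 and −2.02 on the log2 scale in the 4 comparisons (SE 0.07 each, limma adjusted p from 6.7e-18 to 3.6e-17). The Stub1 probe was still well above background on all 24 arrays, and where it lies relative to the inactivated part of the gene was not analysed here.

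The neighbours did not move as a block with Stub1. At 37 °C and 30 min, 2 of the 9 tested neighbours were higher and 3 lower in CHIP null cells than in wildtype cells, beside 34% of all tested genes called in either direction, 14.7% higher and 19.4% lower (limma, adjusted p under 0.05). At 43 °C and 30 min, 2 were higher and 2 lower, beside 27.5% of all genes, 14.2% higher and 13.3% lower. At 240 min, 0 were higher and 2 lower at 37 °C, and again 0 were higher and 2 lower at 43 °C, beside 13.1% (4.8% higher, 8.26% lower) and 13% (4.66% higher, 8.3% lower) of all genes. Without Jmjd8, which passed the dim-probe filter only through wildtype groups, 2 higher and 2 lower of 8 were called in each 30 min comparison and 0 higher and 1 lower in each 240 min comparison. The median difference over the tested neighbours was −0.15, −0.12, −0.08 and −0.09, in the order 37 °C and 43 °C at 30 min and then 37 °C and 43 °C at 240 min, beside −0.01, 0.01, −0.02 and −0.01 over all tested genes. Centring arrays on their median moved the split over all genes at 30 min to 1916 higher and 950 lower at 37 °C, against 1979 and 2613 after loess, and to 446 and 1093 at 43 °C, against 1918 and 1788. For 43 °C and 240 min it moved to 98 and 1110, against 629 and 1120. With the slide as a fixed term, 1 neighbour was called in each of the 4 comparisons: Metrn in both at 30 min and Msln in both at 240 min. No slide held both genotypes at the same temperature. These estimates are therefore indirect, pieced together from within-slide differences between other pairs of groups.

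**Figure D1:**
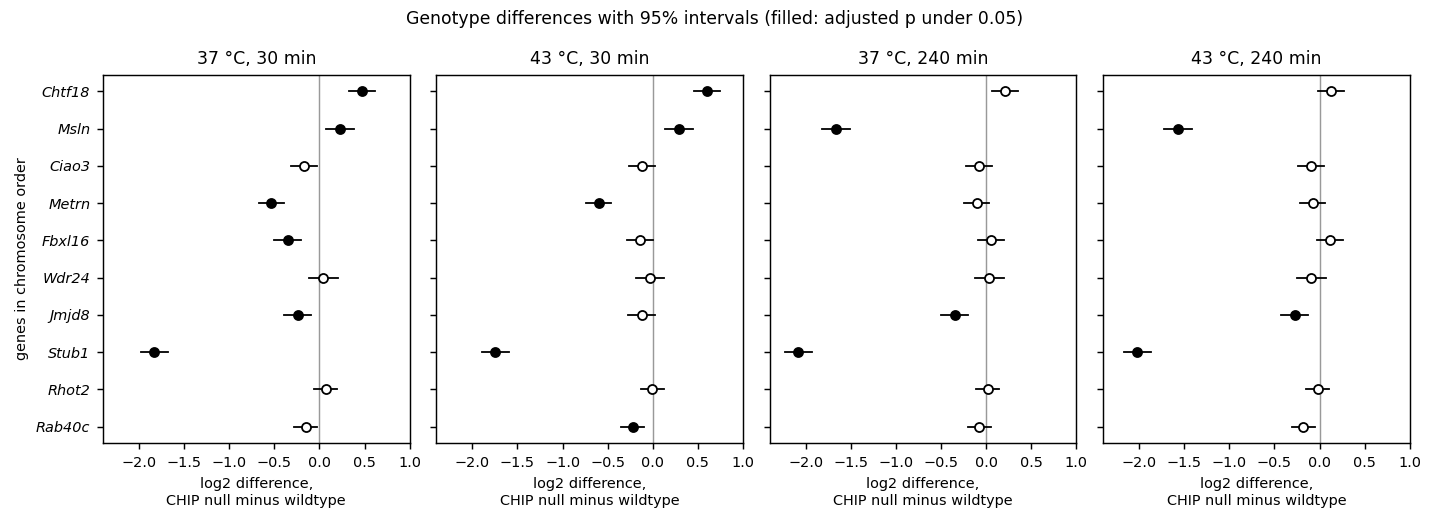
Log2 difference between CHIP null and wildtype cells (horizontal axis) for Stub1 and the 9 tested neighbours, in chromosome order from top to bottom, in the 4 pairs of temperature and time label. Points are limma estimates, lines are 95% intervals, and filled points have an adjusted p under 0.05. Stub1 lies near −2 in every panel, Msln is above 0 at 30 min and at −1.67 and −1.57 at 240 min, and most neighbours lie within 0.6 of 0.

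**Figure D2:**
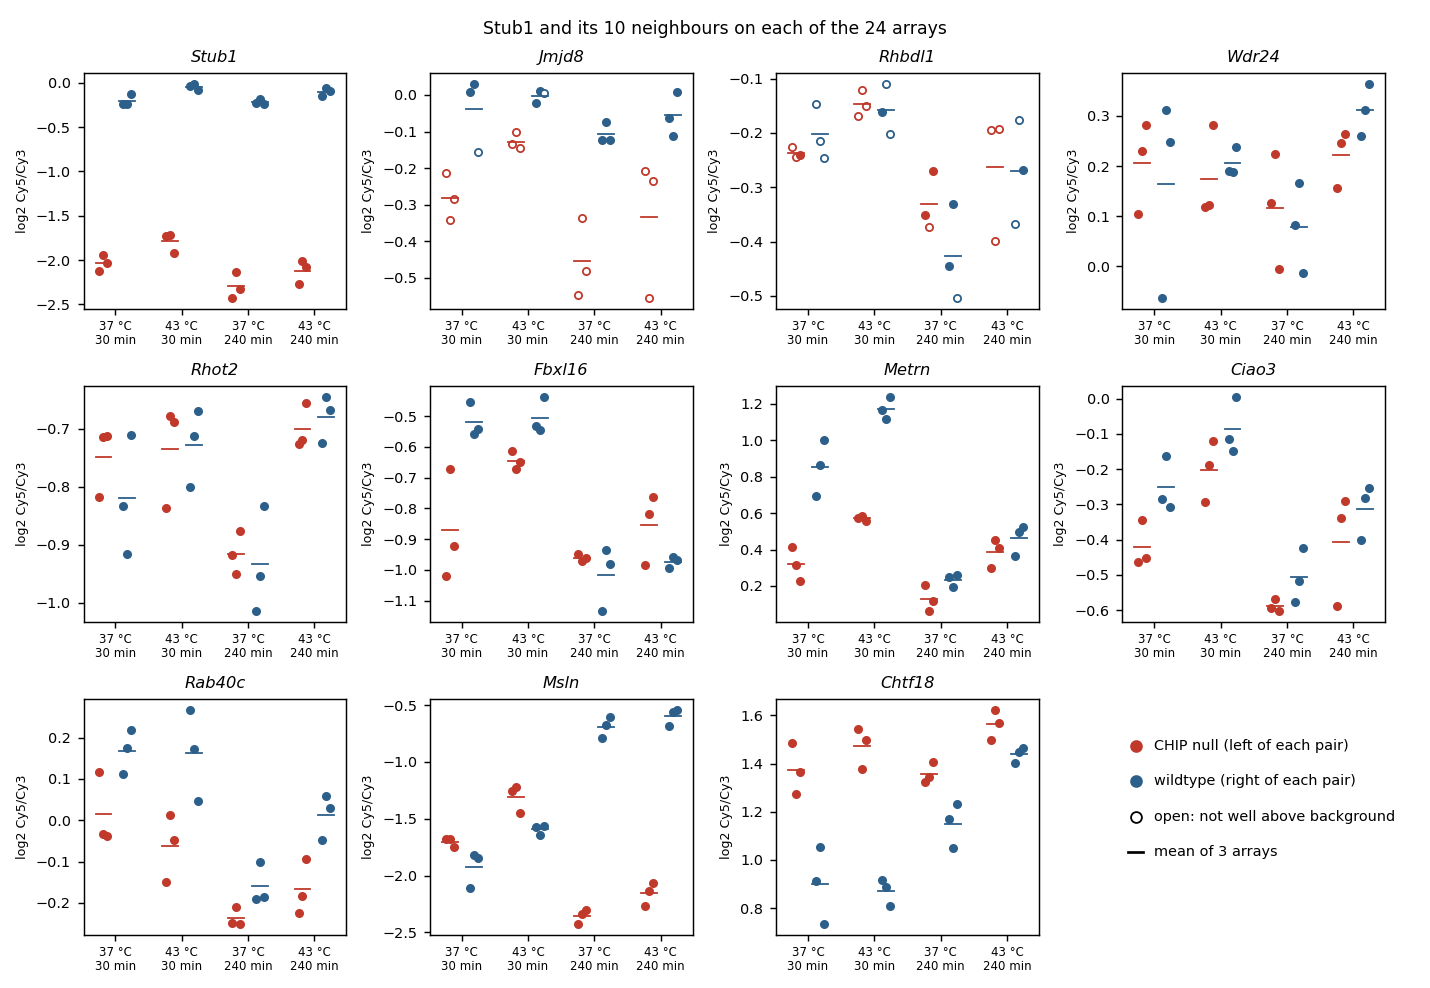
Log2 Cy5/Cy3 ratio (vertical axis, own scale for each gene) of Stub1 and its 10 neighbours on each array, with CHIP null cells left and wildtype cells right in each pair. Points are arrays, lines are means of 3 arrays, and open points are not well above background. Stub1 and Jmjd8 have the CHIP null arrays below the wildtype arrays in all 4 pairs, Chtf18 has them above.

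Jmjd8, the gene directly beside Stub1, was the only tested neighbour called in the same direction in at least 3 of the 4 genotype comparisons, lower in CHIP null cells each time. Jmjd8 passed the filter on dim probes only through wildtype groups, so the direction of its calls is not independent of the filter. At 37 °C and 30 min its log2 ratios were −0.21, −0.34 and −0.28 in CHIP null cells, against 0.01, 0.03 and −0.16 in wildtype cells. At 43 °C and 30 min they were −0.14, −0.10 and −0.15 in CHIP null cells, against −0.02, 0.01 and 0.00 in wildtype cells. The CHIP null arrays lay below the wildtype arrays in both conditions. At 240 min the values at 37 °C were −0.55, −0.34 and −0.48 in CHIP null cells, against −0.12, −0.07 and −0.12 in wildtype cells. At 43 °C they were −0.21, −0.56 and −0.23 in CHIP null cells, against −0.06, −0.11 and 0.01 in wildtype cells. Arrays of the groups did not overlap in any of the 4 comparisons, as was the case for 44.6%, 38.8%, 31.6% and 27.4% of all tested genes in turn. The share of genes without overlap in all 4 together was not counted.

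The Jmjd8 differences were −0.24 (SE 0.07, limma adjusted p = 0.01), −0.12 (adjusted p = 0.22), −0.35 (adjusted p = 0.001) and −0.28 (adjusted p = 0.0095) in the same order of conditions. Of all tested genes, 4.79% were called lower in at least 3 of the 4 comparisons. The call at 37 °C and 30 min was lost without wildtype replicate 2 (highest adjusted p over the arrays left out 0.0563). The call at 43 °C and 240 min was lost without CHIP null replicate 2 or without wildtype replicate 3 (difference −0.34 to −0.17, highest adjusted p 0.143). With the slide as a fixed term none of the Jmjd8 calls remained, with differences of −0.29, −0.29, −0.35 and −0.24 and adjusted p of 0.191, 0.173, 0.195 and 0.474. On slide 1, 2 CHIP null arrays at 43 °C lay below 2 wildtype arrays at 37 °C by a mean log2 difference of −0.14, and on slide 5, 2 CHIP null arrays at 37 °C lay below 2 wildtype arrays at 43 °C by −0.39; both mix genotype with temperature.

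The Jmjd8 probe was dim. It was well above background on 0 of the 12 CHIP null arrays and 10 of the 12 wildtype arrays. Its Cy5 signal over local background was −1.4 to 8.4 scanner units in CHIP null cells with a median of 4.6, against 6.9 to 19.6 units in wildtype cells with a median of 14.9. A probe not above background in CHIP null cells allows at most a bound on the fold, so its differences and their order among genes are not sizes. From the Cy5 channel alone, scaled between arrays, the wildtype mean at 240 min was 1.189-fold higher at 37 °C and 1.207-fold higher at 43 °C. At 30 min the same calculation gave 1.195 and 1.121, beside 1.182 and 1.09 for the fold of the ratios themselves. These are differences of means that include CHIP null signals not well above background. They are not bounds, and no bound is given. In both wildtype groups with the 30 min label, 2 of 3 arrays measured the probe. The size of the difference followed the treatment of low signals. With the background-subtracted log ratio of the scanner software it was −2.45, −1.87, −2.39 and −2.27, and with a smaller offset after background correction −0.65, −0.35, −0.81 and −0.75.

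**Figure D3:**
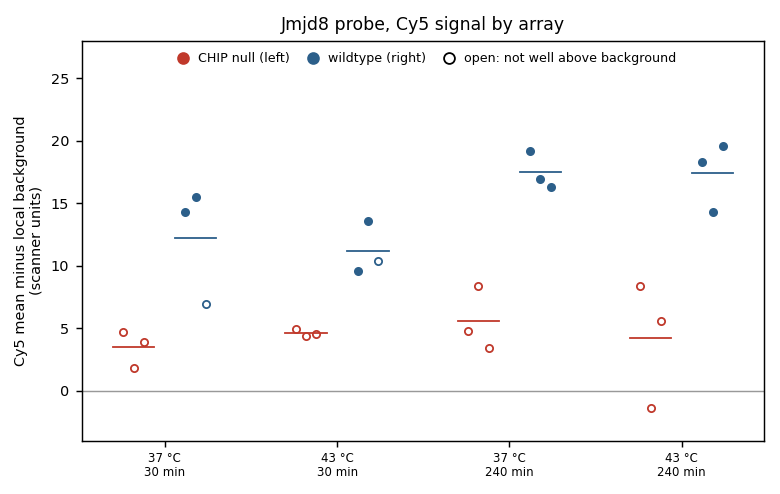
Cy5 signal of the Jmjd8 probe minus local background (vertical axis, scanner units) on each array, with CHIP null cells left and wildtype cells right in each of the 4 pairs of temperature and time. Lines are means of 3 arrays, and open points are not well above background. The CHIP null arrays lie between −1.4 and 8.4 and all are open, and the wildtype arrays lie between 6.9 and 19.6.

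Jmjd8 and Stub1 face each other, and their annotated intervals overlap at the 3′ ends. Where the Jmjd8 probe lies relative to that overlap was not analysed here. The 3 genes whose log2 ratios correlated best with those of Jmjd8 over the 24 arrays lay on other chromosomes: Fgf18 on chromosome 11 (Pearson r = 0.885), H2bu2 on chromosome 11 (0.865) and Gyg on chromosome 3 (0.859). These arrays share groups and slides, so the correlations are a description.

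Msln, a surface glycoprotein of the mesothelial lining of body cavities, had the biggest genotype difference among the tested neighbours, and its direction depended on the time label. At 37 °C and 30 min its log2 ratios were −1.68, −1.68 and −1.75 in CHIP null cells, against −2.11, −1.82 and −1.84 in wildtype cells. At 43 °C and 30 min they were −1.26, −1.22 and −1.45 in CHIP null cells, against −1.57, −1.64 and −1.57 in wildtype cells. CHIP null arrays were thus higher in both, by 0.22 (SE 0.07, limma adjusted p = 0.021) and 0.29 (adjusted p = 0.0043). At 37 °C and 240 min they were −2.42, −2.34 and −2.30 in CHIP null cells, against −0.79, −0.67 and −0.60 in wildtype cells. At 43 °C and 240 min they were −2.27, −2.14 and −2.06 in CHIP null cells, against −0.68, −0.56 and −0.54 in wildtype cells. These CHIP null arrays were far below the wildtype arrays, by −1.67 (adjusted p = 7.6e-16) and −1.57 (adjusted p = 3.4e-15), which are 3.17-fold and 2.96-fold.

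The change of the Msln genotype difference between the labels was tested in the unheated cells: it differed by −1.89 on the log2 scale at 240 min relative to 30 min (SE 0.11, limma adjusted p = 1.1e-13). The change was −2.98 with the background-subtracted log ratio of the scanner software and −2.51 with an offset of 10. Over heated and unheated arrays together, CHIP null cells had a median of −2.29 over 6 arrays at 240 min and −1.56 over 6 arrays at 30 min, and wildtype cells had −0.64 at 240 min and −1.73 at 30 min. Of all tested genes, 2.1% were called in opposite directions among the 4 genotype comparisons, and Msln was the only tested neighbour that was. Within slide 1, CHIP null arrays at 43 °C were 0.63 above wildtype arrays at 37 °C, and within slide 5, CHIP null arrays at 37 °C were −1.83 relative to wildtype arrays at 43 °C, on the log2 scale with 2 arrays each. The call at 37 °C and 30 min was lost without wildtype replicate 1, CHIP null replicate 1 or CHIP null replicate 2 (difference 0.13 to 0.28, highest adjusted p 0.193).

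Most other mesothelial and simple epithelial markers fell with Msln at 240 min. Of 13 tested markers, Msln included, 12 were lower in CHIP null cells at 37 °C and 9 at 43 °C, with 0 higher. Of all tested genes, 8.26% and 8.3% were lower. The list's median difference was −0.65 and −0.49. Upk3b, Upk1b, Lrrn4 and Epcam passed the filter on dim probes only through wildtype groups, and without these 4 the counts were 8 and 6 of 9 lower and 0 higher. Krt18, a keratin of simple epithelia, fell by 1.20 and 1.23 on the log2 scale (adjusted p = 1.2e-08 and 8.4e-09), and its partner Krt8 fell by 0.95 and 0.75 (adjusted p = 6.3e-06 and 0.00025). Krt7, another epithelial keratin, fell by 0.65 and 0.49 (adjusted p = 3.6e-07 and 4.2e-05). Wt1, a transcription factor of mesothelium, was well above background on 3 of 6 CHIP null arrays and 6 of 6 wildtype arrays at 240 min. Upk3b, an uroplakin of mesothelium, was well above background on 1 of 6 CHIP null arrays and 6 of 6 wildtype arrays at 240 min, and on 0 of 12 arrays at 30 min. Muc16 was not tested.

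At 30 min the same list was mixed, with 1 marker higher, Msln itself, and 2 lower at each temperature, and median differences of −0.05 and 0.04. Without the 4 markers that passed through wildtype groups alone the counts were the same, of 9, and the medians were 0.04 and 0.02. The mean log2 ratio over the 13 markers was −1.39 to −1.30 in CHIP null cells against −0.75 to −0.63 in wildtype cells at 37 °C and 240 min. With heat at 240 min it was −1.28 to −1.15 in CHIP null cells against −0.68 to −0.63 in wildtype cells. At 37 °C and 30 min it was −1.06 to −0.92 in CHIP null cells against −0.98 to −0.93 in wildtype cells, and at 43 °C and 30 min −0.88 to −0.77 against −0.90 to −0.80. The groups were apart at 240 min and overlapped at 30 min. In cultures such as these, fewer cells of a type and less RNA per cell cannot be told apart, and the part of these markers in the Msln result was not tested.

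**Figure D4:**
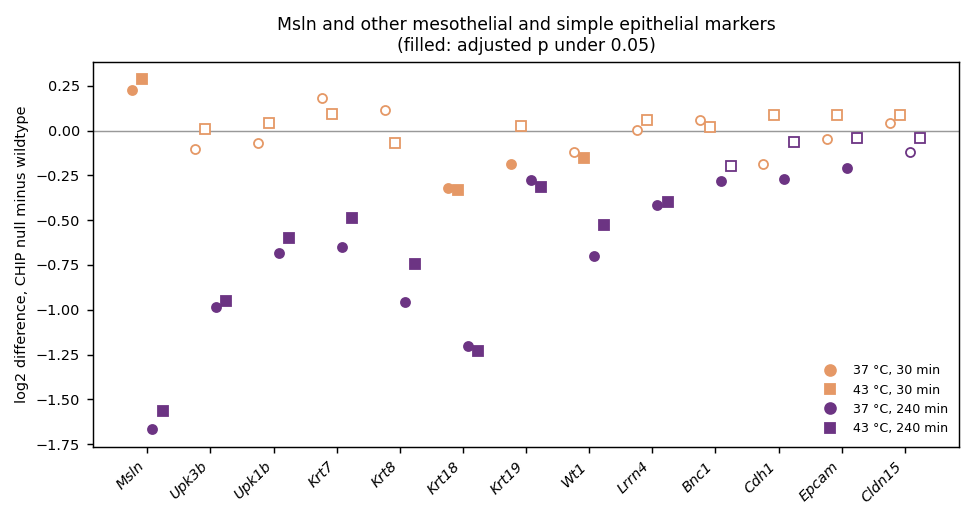
Log2 difference between CHIP null and wildtype cells (vertical axis) for the 13 tested mesothelial and simple epithelial markers (horizontal axis). Circles are 37 °C, squares 43 °C, orange 30 min and purple 240 min, and filled symbols have an adjusted p under 0.05. The purple symbols lie below 0 for every marker shown, down to −1.67 for Msln, while the orange symbols lie between −0.33 and 0.29.

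Metrn, meteorin, is a secreted protein known for glial differentiation and neurite growth. In unheated cells at 30 min its log2 ratios were 0.41, 0.31 and 0.23 in CHIP null cells, against 0.69, 0.87 and 1.002 in wildtype cells. In heated cells at 30 min they were 0.57, 0.59 and 0.56 in CHIP null cells, against 1.16, 1.11 and 1.24 in wildtype cells. Metrn was therefore lower in CHIP null cells in both, by −0.53 (SE 0.07, limma adjusted p = 3.8e-07) and −0.60 (adjusted p = 6.4e-08), with no overlap of arrays. In unheated cells at 240 min it had 0.20, 0.06 and 0.12 in CHIP null cells, against 0.25, 0.19 and 0.26 in wildtype cells. In heated cells at 240 min it had 0.30, 0.45 and 0.41 in CHIP null cells, against 0.37, 0.50 and 0.52 in wildtype cells. There the arrays overlapped, and the differences of −0.10 (95% interval −0.24 to 0.04, adjusted p = 0.39) and −0.08 (−0.22 to 0.06, adjusted p = 0.55) did not pass.

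A second, dimmer probe of Metrn gave the same picture, with differences of −0.45 and −0.41 at 30 min (adjusted p = 1.4e-07 and 1.1e-06) and −0.01 and −0.13 at 240 min. The change of the Metrn difference between the labels in unheated cells was 0.43 (SE 0.10, adjusted p = 0.0018). With the slide as a fixed term, Metrn was still lower in CHIP null cells at 30 min, by −0.46 (adjusted p = 0.0101) at 37 °C and −0.38 (adjusted p = 0.0359) at 43 °C. Within slide 1 the CHIP null arrays at 43 °C were −0.21 relative to the wildtype arrays at 37 °C.

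Many neural and glial markers were also lower in CHIP null cells at 37 °C and 30 min, and fewer at 43 °C. Of 12 tested, 8 were lower and 0 higher at 37 °C, and 3 lower and 0 higher at 43 °C. Their median differences were −0.22 and −0.09. Of all tested genes, 19.4% and 13.3% were lower. Of the 12, 4 passed the filter on dim probes only through wildtype groups, and without them 6 and 3 of 8 were lower and 0 higher. Fabp7, a fatty acid binding protein of radial glia, fell by 3.26 on the log2 scale at 37 °C and fell by 3.22 at 43 °C (adjusted p = 2.5e-24 and 3.6e-24). Nes, an intermediate filament of neural progenitors, fell by 0.98 and 1.04 (adjusted p = 1.5e-15 and 3.6e-16). Gfap, an intermediate filament of astrocytes, was well above background on 0 of 6 CHIP null arrays and 6 of 6 wildtype arrays at 30 min. At 240 min this was reversed, with 6 of 6 CHIP null arrays and 0 of 6 wildtype arrays. Fabp7, Nes and Gfap were the 3 markers called at 43 °C and 30 min. The mean log2 ratio of the list was −1.15 to −1.03 in CHIP null cells against −0.59 to −0.45 in wildtype cells at 37 °C and 30 min, and −0.92 to −0.81 against −0.44 to −0.38 at 43 °C. At 240 min, 9 were lower and 2 higher at 37 °C, and 7 lower and 2 higher at 43 °C. The 2 higher were Gfap and Tubb3 at both temperatures. Without the 4 genes that passed only through wildtype groups, 6 and 5 were lower and 2 higher each. Metrn was not called at 240 min. The part of these markers in the Metrn result was not tested.

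Fbxl16, the F-box neighbour next to Metrn, differed in 1 of the 4 comparisons. In unheated cells at 30 min its log2 ratios were −1.02, −0.67 and −0.92 in CHIP null cells, against −0.45, −0.56 and −0.54 in wildtype cells, a difference of −0.35 (SE 0.07, limma adjusted p = 0.00024). In heated cells at 30 min they were −0.61, −0.67 and −0.65 in CHIP null cells, against −0.53, −0.55 and −0.44 in wildtype cells, where −0.14 did not pass (adjusted p = 0.15). CHIP null arrays were lower in both without overlap. At 240 min the CHIP null arrays lay between −0.98 and −0.76, against −1.13 to −0.94 on the wildtype arrays, and the ranges overlapped. The differences there were 0.06 (adjusted p = 0.71) at 37 °C and 0.12 (adjusted p = 0.33) at 43 °C. In unheated cells the difference at 240 min exceeded that at 30 min by 0.41 (SE 0.10, adjusted p = 0.004).

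Chtf18 went the other way from Stub1. In unheated cells at 30 min its log2 ratios were 1.49, 1.27 and 1.36 in CHIP null cells, against 0.91, 1.05 and 0.74 in wildtype cells, a difference of 0.47 (SE 0.07, limma adjusted p = 4.4e-06). In heated cells at 30 min they were 1.54, 1.38 and 1.50 in CHIP null cells, against 0.92, 0.89 and 0.81 in wildtype cells, a difference of 0.60 (adjusted p = 1.1e-07). In unheated cells at 240 min they were 1.32, 1.34 and 1.41 in CHIP null cells, against 1.17, 1.05 and 1.23 in wildtype cells. In heated cells at 240 min they were 1.50, 1.62 and 1.57 in CHIP null cells, against 1.40, 1.45 and 1.47 in wildtype cells. Every CHIP null array was above the wildtype arrays of its condition, yet the 240 min differences of 0.21 (adjusted p = 0.051) and 0.13 (95% interval −0.02 to 0.27, adjusted p = 0.29) did not pass. With the slide as a fixed term, neither 30 min call remained, with differences of 0.29 (limma adjusted p = 0.133) and 0.32 (adjusted p = 0.0845). Within slide 5 the CHIP null arrays at 37 °C were −0.12 relative to the wildtype arrays at 43 °C, the opposite sign from the 0.46 within slide 1, and both mix genotype with temperature.

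Rab40c, the farthest of the neighbours on its side of Stub1, was lower in CHIP null cells in 1 comparison. In heated cells at 30 min its log2 ratios were −0.15, 0.01 and −0.05 in CHIP null cells, against 0.27, 0.17 and 0.05 in wildtype cells, a difference of −0.22 (SE 0.06, limma adjusted p = 0.0075). That call was lost without CHIP null replicate 1 or wildtype replicate 1 (difference −0.28 to −0.17, highest adjusted p 0.0703). In the other 3 conditions the differences were −0.15 (adjusted p = 0.059), −0.08 (adjusted p = 0.51) and −0.18 (adjusted p = 0.056). All 4 estimates were below 0. The second Rab40c probe was well above background on 2 of 24 arrays and was not used.

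Ciao3, Wdr24 and Rhot2 were not called in any genotype comparison. Ciao3 ranged from −0.60 to 0.01 over the 24 arrays, and its differences were −0.17 (limma adjusted p = 0.065), −0.12, −0.08 and −0.09. Wdr24, 2 places from Stub1, ranged from −0.06 to 0.36, with 95% intervals of its 4 differences reaching from −0.25 to 0.20. Rhot2, 3 places away on the other side, ranged from −1.01 to −0.65, with intervals from −0.15 to 0.20. The second Rhot2 probe was well above background on 9 of 24 arrays. Rhbdl1, on the side of Rhot2 and nearest to Stub1 among the neighbours there, was not tested, since its probe was well above background on 3 of 12 CHIP null arrays and 4 of 12 wildtype arrays, and its log2 ratios lay between −0.50 and −0.11.

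Heat gave small rises that depended on the scaling. After 30 min at 43 °C, 4 of the 9 tested neighbours were higher and 0 lower in CHIP null cells than at 37 °C (35.2% of all genes called, 22.6% higher and 12.6% lower), and 2 were higher and 0 lower in wildtype cells (14.6% called, 6.77% higher and 7.79% lower). At 240 min, 5 were higher and 0 lower in CHIP null cells (39% called, 24.5% higher and 14.5% lower), and 6 were higher and 0 lower in wildtype cells (31.5% called, 18.8% higher and 12.7% lower). When arrays were centred on their median in place of the loess curve, these counts became 0 higher and 3 lower, 0 and 0, 0 and 2, and 0 and 0. That scaling set the median of all genes at −0.18, −0.09, −0.18 and −0.03, beside 0.03, 0.01, 0.07 and 0.06 after loess, and the median of the neighbours at −0.20, −0.08, −0.14 and 0.07, beside 0.15, 0.04, 0.18 and 0.19. It also turned the split over all genes to 42 higher and 5212 lower in CHIP null cells at 30 min, against 3052 and 1701 after loess, and to 26 and 593 in wildtype cells, against 913 and 1051. At 240 min it gave 19 higher and 4671 lower in CHIP null cells, against 3301 and 1962 after loess, and 80 and 1771 in wildtype cells, against 2530 and 1715.

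Metrn was the only tested neighbour called with heat in all 4 comparisons under loess, and it turned below 0 under median centring in CHIP null cells at both times. At 43 °C against 37 °C it was 0.25 higher in CHIP null cells (limma adjusted p = 0.0053) and 0.32 higher in wildtype cells (adjusted p = 0.0026) at 30 min. At 240 min it was 0.26 higher in CHIP null cells (adjusted p = 0.0047) and 0.23 higher in wildtype cells (adjusted p = 0.013). Its heated arrays lay above the unheated ones in each of the 4 comparisons, as the values above show, and its second probe was called higher in all 4 as well. The share of all tested genes called higher with heat in all 4 was not counted. Nor was the share with heated arrays above unheated ones in all 4. The wildtype call at 240 min was lost without any of 3 arrays (control replicate 2, heat replicate 2 or heat replicate 3), with differences of 0.20 to 0.28 over the arrays left out and a highest adjusted p of 0.0659.

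Msln was called higher with heat in 3 of the 4 comparisons, by 0.39 in CHIP null cells (adjusted p = 0.00028) and 0.33 in wildtype cells (adjusted p = 0.0038) at 30 min, and by 0.20 in CHIP null cells at 240 min (adjusted p = 0.039). In wildtype cells at 240 min it was 0.10 (adjusted p = 0.33). Ciao3 was called higher in 3, by 0.22 and 0.18 in CHIP null cells at 30 and 240 min (adjusted p = 0.017 and 0.043) and by 0.19 in wildtype cells at 240 min (adjusted p = 0.039). Rhot2 was called at 240 min alone, by 0.21 in CHIP null cells (adjusted p = 0.0085), with heated arrays at −0.73 to −0.66 against −0.95 to −0.88 unheated, and by 0.25 in wildtype cells (adjusted p = 0.0033), with −0.73 to −0.65 against −1.01 to −0.83. Chtf18 was called at 240 min, by 0.21 in CHIP null cells (adjusted p = 0.023) and 0.29 in wildtype cells (adjusted p = 0.0033). Fbxl16 was called in CHIP null cells at 30 min by 0.23 (adjusted p = 0.015), and Wdr24 and Rab40c in wildtype cells at 240 min by 0.23 and 0.17 (adjusted p = 0.025 and 0.037). Under median centring, Msln, Ciao3 and Chtf18 turned below 0 in CHIP null cells at 240 min, as did Rhot2, and Ciao3 and Fbxl16 did so at 30 min. Stub1 was 0.24 higher with heat in CHIP null cells at 30 min (adjusted p = 0.011), and the other 3 comparisons did not pass.

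Several of these heat calls lay near enough to the threshold to be lost when any 1 of several arrays was left out. In CHIP null cells at 240 min, those of Chtf18 and Msln were lost without control replicate 1 or 2 or heat replicate 2 or 3 (differences 0.18 to 0.24 and 0.15 to 0.25, highest adjusted p 0.0972 and 0.184), and that of Ciao3 without any of those or control replicate 3 (0.12 to 0.27, highest adjusted p 0.235). In CHIP null cells at 30 min, Fbxl16 was lost without control replicate 1 or 3 (0.15 to 0.33, highest adjusted p 0.131), Ciao3 without those or heat replicate 3 (0.18 to 0.27, 0.0841), and Stub1 without control replicate 1 or heat replicate 2 (0.20 to 0.31, 0.0693). In wildtype cells at 240 min, Wdr24 and Rab40c were lost without control replicate 1 or 3 or heat replicate 2 or 3 (0.19 to 0.28 and 0.15 to 0.20, highest adjusted p 0.116 and 0.128), and Ciao3 without control replicate 1 or 2 or heat replicate 2 or 3 (0.16 to 0.24, 0.149). The calls of Msln at 30 min, Rhot2 at 240 min and Metrn in CHIP null cells remained in every one of these refits, as did Chtf18 in wildtype cells at 240 min.

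Whether heat acted differently in CHIP null and wildtype cells was tested as an interaction. By limma, 0 of the 9 tested neighbours passed at 30 min, where 0.445% of all genes did (0.386% positive, 0.0593% negative), and 0 passed at 240 min, where 0% did. At an unadjusted p under 0.05, 1 neighbour was counted at 30 min and 0 at 240 min, beside 1573 and 471 of all 13488 tested genes. The 1 was Fbxl16, with a difference between the heat responses of 0.21 (95% interval 0.01 to 0.42, adjusted p = 0.4). In the test of the genotype difference across time labels in unheated cells, 3 neighbours passed, Msln with a negative and Metrn and Fbxl16 with a positive change, beside 18.1% of all genes (9.14% positive, 8.92% negative).

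Along the chromosome, the share of genes called in the same direction in at least 3 of the 4 genotype comparisons was not highest in the places nearest to Stub1. Among the tested genes within 10 annotated places of Stub1, 1 of 12 (8.33%) met this count. It was Jmjd8, which passed the filter on dim probes only through wildtype groups. At 11 to 30 places it was 2 of 18 (11.1%), at 31 to 60 places 5 of 27 (18.5%), at 61 to 120 places 8 of 51 (15.7%), and farther away 40 of 465 (8.6%). The share over all tested genes was 6.98%, and over chromosome 17 as a whole 9.93%, below 10.2% on chromosome 15 and above 9.82% on the X chromosome. Called genes stood beside uncalled ones in this order. Running along the annotated starts, Chtf18 (14 places before Stub1) was higher at 30 min, Msln (11 before) had both signs, Ciao3 (9 before) was not called, Metrn (4 before) and Fbxl16 (3 before) were lower at 30 min, Wdr24 (2 before) was not called and Jmjd8 (1 before) was lower, while on the other side Rhot2 (3 after) was not called and Rab40c (9 after) was lower once.

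Other genes within 30 places met the naming rule of at least 2 calls in the same direction, which 26.8% of all tested genes met. Lmf1, an endoplasmic reticulum factor for lipase maturation 18 places before Stub1, was lower in all 4, by −0.38, −0.31, −0.41 and −0.39 (limma adjusted p = 2.7e-05, 0.00057, 3.2e-05 and 6.7e-05). Decr2, a peroxisomal reductase 19 places after, was higher in 3, by 0.23 at 43 °C and 30 min (adjusted p = 0.0055) and by 0.41 and 0.39 at 240 min (adjusted p = 1.5e-05 and 3.8e-05). Haghl, a hydrolase-like gene between Ciao3 and Metrn, was lower at 30 min by −0.50 and −0.58 (adjusted p = 3.6e-07 and 3.2e-08) and stood at −0.03 and −0.10 at 240 min, the same pattern of calls as Metrn. Fam234a was lower at 30 min (−0.41 and −0.29), Wdr90 was higher at 30 min (0.21 and 0.35), and Nme4 was lower at 240 min (−0.21 at both temperatures).

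**Figure D5:**
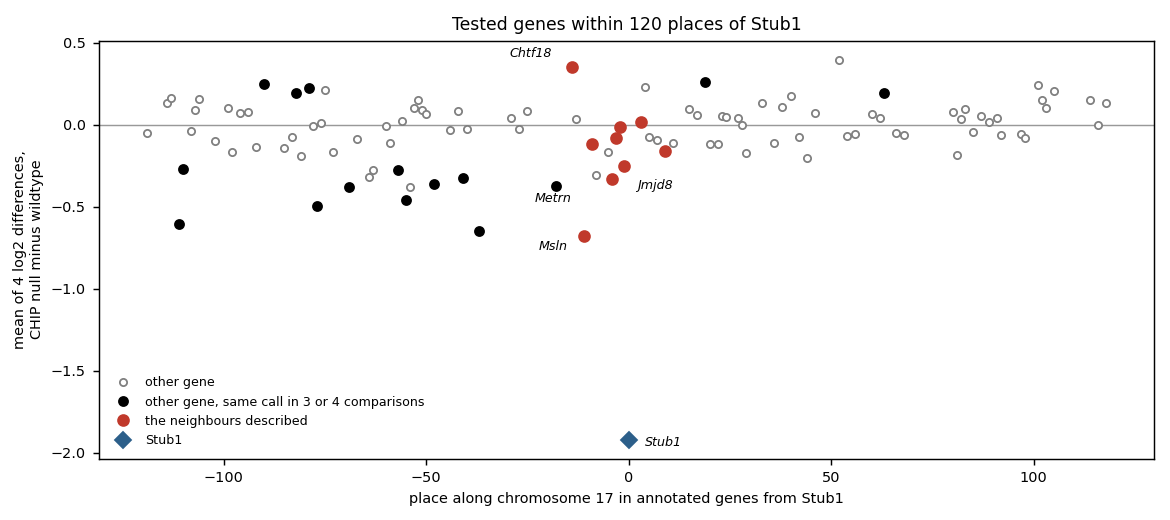
Mean of the 4 log2 differences between CHIP null and wildtype cells (vertical axis) for tested genes within 120 annotated places of Stub1 on chromosome 17 (horizontal axis, places from Stub1). Red points are the neighbours described, the diamond is Stub1, black points are other genes called in the same direction in 3 or 4 comparisons, and open points are the rest. Stub1 stands at −1.92, Msln at −0.68 and Chtf18 at 0.35.

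Other features of the cultures moved with genotype beside the neighbours. At 30 min, Xist was above background on 6 of 6 CHIP null arrays and 0 of 6 wildtype arrays. The Y-linked Ddx3y and Eif2s3y were each above background on 0 of 6 CHIP null arrays and 6 of 6 wildtype arrays at 30 min. At 240 min neither genotype had the Y-linked genes above background, and Xist was above background on 6 of 6 arrays of each genotype. The wildtype arrays of the 2 time labels thus differed in these sex-linked genes, while the CHIP null arrays did not. At 30 min, genotype and this sex-linked difference cannot be told apart. Of 11 tested macrophage markers, 11, 3, 6 and 4 were lower and 0 higher in the 4 comparisons (10, 3, 5 and 3 of 10 without Adgre1, which passed the filter only through wildtype groups), while Itgam and Ptprc were not above background on any array. All 10 fibroblast markers were well above background on at least 20 of the 24 arrays, with 5, 7, 5 and 5 higher and 1, 1, 2 and 2 lower in CHIP null cells. In the same 4 comparisons, 19.4%, 13.3%, 8.26% and 8.3% of all tested genes were lower. The shares higher were 14.7%, 14.2%, 4.8% and 4.66%. The part of the sex-linked and marker differences in the results for the neighbours was not tested.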

How the data were processed

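Total RNA of 24 samples (500 ng each, per the labels) was hybridised with a common reference on 2-colour 44K Agilent arrays. The deposited spot intensity and background intensity values were made with Agilent Feature Extraction 9.1.3.1, per the file headers, and were not corrected. The deposited log10 ratio of Cy5 over Cy3 is background-subtracted and dye-normalized, per the file headers. Other deposited columns are flags for background and outliers, per the file headers. A separate value table of the authors was read as a score. Its control columns match the log10 ratio divided by a constant, its heated columns subtract the control mean, its direction is Cy5 over Cy3, and its time labels are the other way round from the scanner files. The sources used here name no genome build.

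Intensities were corrected with normexp (offset 50) and scaled by loess within each array, with control spots at weight 0 and 333 outlier spots left out (limma 3.58.1, R 4.3.3). Spots of a probe were averaged, and a gene was represented by its brightest probe. A gene was tested if its Cy5 signal was well above background on each of the 3 arrays of 1 group or more. The 8 group means were fitted over all 24 arrays with lmFit and eBayes, with Benjamini-Hochberg adjusted p-values over 13488 genes and a threshold of 0.05. The fit was tested on simulated data. Probes were named through RefSeq accessions (22951), symbols (6659) or synonyms (3109), and 8455 kept the file's name. The precision is limited by 3 arrays per group.

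Named genes are Stub1, all 10 neighbours, other genes within 30 annotated places called in the same direction in at least 2 genotype comparisons, and the 3 genes most like a neighbour called in at least 3. The neighbours, marker lists and tests were chosen with earlier results of these data known. Alternatives were the deposited log ratio, median centring, an offset of 10, no filter, the slide or replicate number as a fixed block, the mean of a gene's probes, the value table, the 12 arrays of a time label, and leaving out each array. Marker counts without genes that passed the filter through 1 genotype alone were added after seeing the data. Replicate numbers did not pair the samples: correlations of same-numbered deviations ran from −0.255 to 0.57.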

Additional observations from a re-analysis of the deposited data

Results flagged for a closer look

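The difference between CHIP null and wildtype cells changed between the time labels for 3 neighbours in unheated cells, by a limma test of the change itself. For Msln it was −1.67 at 240 min and 0.22 at 30 min, a change of −1.89 (adjusted p = 1.1e-13). For Metrn it was −0.10 at 240 min and −0.53 at 30 min, a change of 0.43 (adjusted p = 0.0018). For Fbxl16 it was 0.06 at 240 min and −0.35 at 30 min, a change of 0.41 (adjusted p = 0.004). In heated cells the Msln arrays of the genotypes lay apart in opposite directions at the 2 labels, with differences of −1.57 at 240 min and 0.29 at 30 min, a change of −1.85 that was not tested. The wildtype arrays also differed in sex-linked genes between the labels. Xist was above background on 0 of 6 at 30 min and 6 of 6 at 240 min. Ddx3y and Eif2s3y were above background on 6 of 6 at 30 min and 0 of 6 at 240 min. Time label, slide set and this difference between the wildtype cultures cannot be told apart in these changes.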

How the results depend on the processing

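Leaving out 1 array at a time kept 785 values for single neighbours and Stub1 on their side of the threshold, with 43 losing and 12 gaining a call. Other settings kept 855, with 75 losing a call, 25 gaining one and 25 changing sign with a call under either setting. A further 38 values without 1 array and 79 under other settings changed sign with no call under either. Without 1 array, the count of neighbours called ran from 1 to 3 for genotype at 43 °C and 240 min, and for heat from 2 to 4 in CHIP null cells at 30 min, 2 to 5 in CHIP null cells at 240 min and 2 to 6 in wildtype cells at 240 min. With the slide as a fixed block, the neighbours called were 1 in each genotype comparison and 1 across time labels. For heat they were 2 and 0 at 30 min and 1 and 0 at 240 min, in CHIP null and wildtype cells. Wildtype counts under that block at an unadjusted p under 0.05 were 2 and 2, beside 2281 and 2974 of all 13488 tested genes. Median centring gave 0 for heat in wildtype cells at 30 min, 2 in CHIP null cells and 0 in wildtype cells at 240 min, and 1 across time labels. At an unadjusted p under 0.05 it counted 1 and 0 wildtype neighbours for heat, beside 3012 and 3272 of all tested genes. For heat at 240 min, the deposited log ratio gave 2 in both genotypes, the offset of 10 gave 3 in both, and no filter gave 3 in CHIP null cells.

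Under median centring, the heat differences in CHIP null cells at 30 min became −0.16 for Stub1, −0.18 for Ciao3, −0.20 for Metrn, −0.044 for Fbxl16 and −0.37 for Rhot2. At 240 min they became −0.13 for Chtf18, −0.14 for Msln, −0.15 for Ciao3, −0.058 for Metrn, −0.23 for Fbxl16, −0.14 for Rhot2 and −0.29 for Rab40c. In the value table, which carries the other time label by construction, 2, 2, 5 and 6 neighbours were called for genotype in the order of the report, and for heat 2 in CHIP null cells at 30 min and 2 in wildtype cells at 240 min. Msln became −2.19 and −2.25 at 30 min and 0.79 and 0.58 at 240 min, and Fbxl16 became 0.10 at 37 °C and 30 min and −0.65 and −0.63 at 240 min. Chtf18 became 0.30 for heat in wildtype cells at 30 min and −0.064 at 240 min, and Rhot2 −0.0018 in CHIP null cells at 240 min. Across time labels Msln became 2.98, Metrn −0.40 and Fbxl16 −0.75.

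Over all genes, the slide block called 1639, 1719, 470 and 369 for genotype, against 4592, 3706, 1762 and 1749 without it. For heat it called 2692 and 453 at 30 min and 2745 and 618 at 240 min in CHIP null and wildtype cells, against 4753, 1964, 5263 and 4245. Median centring called 2866, 1539 and 833 in the first 3 genotype comparisons, and 619 and 1851 for heat in wildtype cells. The value table called 1163, 1159, 4738 and 5286 for genotype, and for heat 2807 in CHIP null cells at 30 min and 2712 in wildtype cells at 240 min. The deposited log ratio called 2830 and 2650 for heat at 240 min, with splits of 1179 higher and 1651 lower and of 1165 and 1485, and 2117 and 2482 in CHIP null cells at 30 min. The interaction at 30 min, 60 genes, became 5 with median centring, 12 with the slide block, 39 with the offset of 10, 17 with the 12 arrays of the label and 0 with the value table (at 240 min, 59 with the value table, 1 with the slide block). Across time labels 2436 genes became 784 with median centring and 699 with the slide block. With the replicate block 6, 4, 2 and 2 neighbours were called for genotype and 4, 2, 5 and 6 for heat, and the paired fit moved none of these counts by over 1.5 times. The cause of these changes was not tested. Dim probes limit Jmjd8, Rhbdl1 and the second probes of Rhot2 and Rab40c.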

Other observations

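At 31 to 120 annotated places from Stub1 on the side of lower starts, the side of Jmjd8, Metrn and Msln, 12 of 45 tested genes (26.7%) were called in the same direction in at least 3 of the 4 genotype comparisons, 9 lower and 3 higher in CHIP null cells, against 1 of 33 (3.03%) on the other side and 6.98% of all tested genes. Beyond 120 places it was 10 of 81 (12.3%) on the side of lower starts and 30 of 384 (7.81%) on the other. The genes lower in CHIP null cells included Amdhd2, Atp6v0c, Gfer, Ndufb10, Mrps34, Mapk8ip3, Clcn7 and Gnptg, and those higher were Traf7, Nthl1 and Zfp598. Among them Atp6v0c encodes a subunit of the vacuolar proton pump, Clcn7 a lysosomal chloride transporter and Gnptg a subunit of the enzyme that tags lysosomal hydrolases. With the deposited log ratio the shares were 22.2% and 3.03%, beside 5.79% of all genes, and with the slide as a block 6.67% and 0%, beside 1.19% of all genes. The split into sides and the range of places were chosen after the values were seen, and the difference between the sides was not tested.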
